A study of Mus musculus with 18 samples.

Results

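The genes described here are the mouse Zfp genes, those whose symbol is Zfp plus a number, in hippocampal RNA measured on Affymetrix mouse expression arrays. They were chosen by symbol and by level: a probe set had to have a mean signal over 20 across all 18 arrays and to be annotated to a single gene, and a gene with several such probe sets was represented by its brightest. This rule kept 237 of the 305 Zfp genes on the arrays, out of 11657 genes tested, and left out 68 with no probe set over 20. A probe set is a group of short oligonucleotides that together report on a transcript, and its signal is in arbitrary units on a linear scale. The hippocampus came from male mice, 10 weeks old at the start, in 6 groups of 3 arrays. The strain is C57Bl/6 in the labels and C57BL/6J in the study's methods. Ctrl mice had no treatment. IH5D mice had 5 daily sessions of intermittent hypoxia treatment (IHT) and were killed at the end of the final session. In a session a cycle of 3 min, with nitrogen for 1 min and room air for 2 min, lowered inspired oxygen to 5%, and cycles went on for 8 h. IH5DR2 mice had the same 5 sessions followed by 64 h in normal air. IH28D mice had 28 daily sessions, and Ctrl28 mice were reared for 28 days in normal air as their control. The 12 m mice were reared for 12 months without treatment. None of these mice carried an allele or agent that the labels name.

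Most Zfp genes encode proteins with tandem C2H2 zinc fingers, short folds that hold a zinc ion and read DNA or RNA bases. Many of them also carry a KRAB domain, which recruits the corepressor Trim28 (KAP1) and, through it, histone methyltransferases and heterochromatin proteins. In this way they silence retroelements and protect imprinted loci, and in the mouse many lie in clusters of closely related copies. Others without that domain act in neural development, in chromatin or as RNA-binding proteins.

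Several arrays stood apart and are described before the results. On array 3 of the 12 m group the mean log2 signal of 14 hippocampal neuron markers was 6.89, against 8.52 to 8.84 on the other 17 arrays. The 5 neocortex markers tested had a mean of 9.56 on that array against 7.5 to 8.13 elsewhere. The 5 markers of striatum and septum had 7.85 against 5.51 to 6.49. The markers of this array thus went against the tissue label. The main counts in 12 m, and some of the named changes, are given with and without it. All other 12 m values include it. On Ctrl28 array 1 the 3' probe sets of Actb and Gapdh exceeded the 5' ones by 2.39 on the log2 scale, a gap that was 0.822 and 0.966 on the other Ctrl28 arrays, 0.617 to 0.861 in the 12 m group and 0.328 to 0.535 on all remaining arrays. This gap is a measure of RNA quality or of labelling. The 10 choroid plexus markers had a mean of 3.75 to 4.74 in the 12 m group and 5.12 to 8.91 on all other arrays. Within groups, arrays correlated at 0.924 to 0.983 and no arrays were identical. Whether each array came from a separate mouse is not stated, so p-values measure the spread between arrays.

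Promoters are shown for the Zfp genes with the largest rises and falls in 12 m against Ctrl that had an entry in RefSeq (GRCm38.p6), because the number of CG pairs differed between the Zfp genes that rose and those that fell. Each runs from 250 bases before the annotated start to 50 bases after it, 5′ to 3′ on the gene's strand, and capitals mark CG pairs. Zfp948 (chr17:21566728-21567027, plus strand) and Zfp942 (chr17:21962415-21962714, minus strand) rose, and Zfp628 (chr7:4914967-4915266, plus strand) and Zfp423 (chr8:87959546-87959845, minus strand) fell.
Zfp948: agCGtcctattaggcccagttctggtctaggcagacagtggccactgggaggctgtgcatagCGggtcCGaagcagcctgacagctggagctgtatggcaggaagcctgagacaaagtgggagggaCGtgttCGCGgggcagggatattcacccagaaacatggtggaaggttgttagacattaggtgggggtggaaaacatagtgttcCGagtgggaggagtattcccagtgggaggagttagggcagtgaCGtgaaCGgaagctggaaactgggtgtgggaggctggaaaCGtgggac
Zfp942: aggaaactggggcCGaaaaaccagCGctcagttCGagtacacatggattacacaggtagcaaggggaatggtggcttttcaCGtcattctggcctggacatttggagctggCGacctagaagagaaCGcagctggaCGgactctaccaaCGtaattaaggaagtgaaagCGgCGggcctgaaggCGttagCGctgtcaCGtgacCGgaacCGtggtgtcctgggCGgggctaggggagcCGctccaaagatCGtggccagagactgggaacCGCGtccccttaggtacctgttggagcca
Zfp628: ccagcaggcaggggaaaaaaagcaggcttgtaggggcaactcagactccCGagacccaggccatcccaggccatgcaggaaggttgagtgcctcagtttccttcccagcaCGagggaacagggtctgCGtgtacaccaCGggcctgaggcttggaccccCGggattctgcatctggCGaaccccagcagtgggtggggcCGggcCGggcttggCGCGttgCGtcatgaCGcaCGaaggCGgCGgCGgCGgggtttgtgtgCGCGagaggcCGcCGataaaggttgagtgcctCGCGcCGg
Zfp423: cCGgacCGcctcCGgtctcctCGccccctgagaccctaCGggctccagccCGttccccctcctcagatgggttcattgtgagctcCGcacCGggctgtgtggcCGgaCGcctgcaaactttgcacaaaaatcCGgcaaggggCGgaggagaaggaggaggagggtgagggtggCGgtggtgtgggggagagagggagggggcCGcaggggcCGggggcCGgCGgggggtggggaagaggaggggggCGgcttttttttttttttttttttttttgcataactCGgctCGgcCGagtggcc

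The promoters of Zfp948 and Zfp942 held 10 and 20 CG pairs, and those of Zfp628 and Zfp423 held 24 and 21. Of the 237 Zfp genes, 195 had a promoter entry. The median number of CG pairs was 13 in the 87 that rose in 12 m against Ctrl, 21 in the 23 that fell and 18 in the 85 that did neither, against 7 in all 27025 promoters. The quartiles were 9 and 20 in those that rose and 19 and 25 in those that fell. Short motifs were searched on both strands, overlaps included. The hypoxia response element core ACGTG was in 22.6% of the Zfp promoters and in 19.7% of all promoters. It was in 27.6% of the promoters of genes that rose in 12 m and in 21.7% of those that fell. The cores CGCATGCG (NRF1), ATGGCGG (YY1) and TTTCCGG (ETS factors) were in 7.18%, 11.8% and 12.8% of Zfp promoters, against 1.91%, 4.19% and 3.62% of all promoters. The cAMP response element TGACGTCA was in 1.54% of Zfp promoters and 1.88% of all. These are matches of letters and not sites. The 27025 promoters include those of genes that were not tested, and the genes tested were not taken as a background. The shares thus do not compare Zfp genes with other expressed genes. The number of CG pairs in rises and falls was not taken over all genes tested either.

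The mean signal over all arrays, by which the genes were chosen, had a median of 65.2 and ranged from 20.1 to 1180. Signals of different probe sets are not comparable as levels. The highest were those of Zfp622, Zfp365, Zfp445, Zfp106 and Zfp771. Zfp622, which acts in maturation of the large ribosomal subunit and was read by a probe set of the type that can bind several genes, had signals of 1287, 1457 and 1443 in Ctrl and 1102, 1030 and 1100 in 12 m. Zfp365, known for roles in neuronal morphology, had 918, 713 and 954 in Ctrl and 1258, 1216 and 1865 in 12 m. The groups did not overlap for either gene, as for 62.9% of all genes. Of the pair Zfp365 passed in 12 m (log2 change 0.73, SE 0.17, limma adjusted p = 0.00189) and Zfp622 did not (-0.37, SE 0.18, adjusted p = 0.0865). Zfp365, highest on 12 m array 3, changed by 0.53 without that array (limma adjusted p = 0.0122). Just inside the threshold of 20 were Zfp882 (20.1), Zfp983 (20.6) and Zfp120 (21.0), and just outside it were Zfp595 (19.4), Zfp418 (19.4) and Zfp974 (19.2). At such levels arrays of 1 group could differ widely, as Zfp882 did in Ctrl with 15.9, 1.5 and 15.1. Over the arrays other than 12 m, 6 of the 237 genes had a mean of 20 or less (Zfp120, Zfp850, Zfp882, Zfp930, Zfp959 and Zfp983). These 6 passed the threshold only through the 12 m group, and all 6 are among the rises counted there.

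Comparison of 12 m with Ctrl asked what differed between young hippocampus and hippocampus reared for 12 months. In it 101 Zfp genes rose and 30 fell (limma moderated test over all 18 arrays, Benjamini-Hochberg adjusted p under 0.05 over all 11657 genes). These were 42.6% and 12.7% of the Zfp genes, against 21.7% and 31.6% of all genes tested. The median log2 change was 0.34 for Zfp genes and -0.23 for all genes. Without 12 m array 3, 95 rose and 24 fell, and the shares of all genes were 20.8% and 28.4%. Of the 131 that had passed, 112 passed again in the same direction, 93 of them rises. With Ctrl28 in place of Ctrl, 64 Zfp genes rose and 16 fell at an unadjusted p under 0.05 in limma. The share of all genes at that p is not given, so these counts do not set Zfp genes apart from other genes. After adjustment there were 40 rises and 0 falls, against 8.05% and 8.3% of all genes. Of the 131, 37 passed again there, all of them rises, and 22 changed direction. A scaling that centred each array on its median moved the median of all genes to -0.36 and gave 91 Zfp rises and 44 falls. Quantile normalization moved it to -0.30 and gave 90 and 47. Shares of all genes are not given for these scalings, so the counts do not compare Zfp genes with all genes. In whole tissue, fewer cells of a type and less RNA per cell cannot be told apart.

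**Figure D1:**
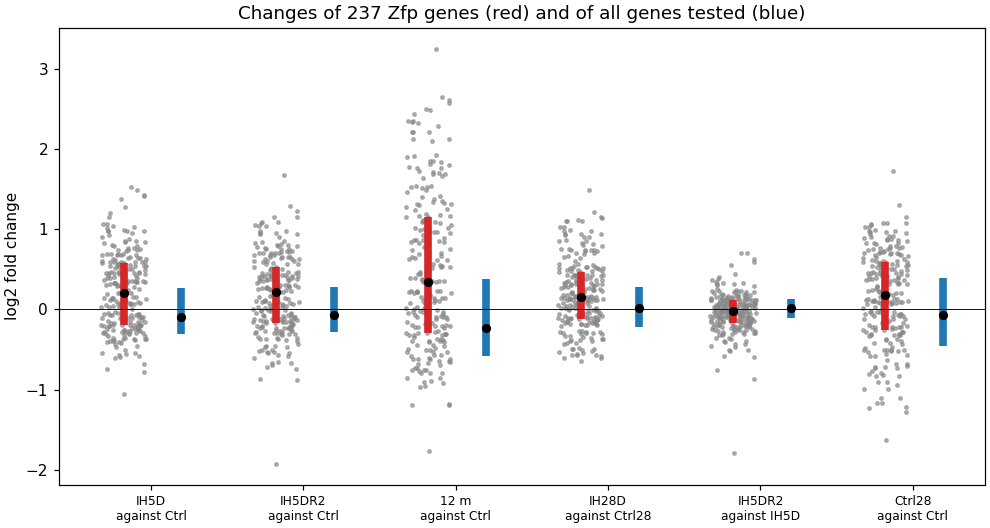
The log2 fold change (vertical axis) in each of 6 comparisons (horizontal axis), with a grey point for each of 237 Zfp genes. Red bars span the quartiles of the Zfp genes, blue bars those of all 11657 genes tested, and black points are medians. In 12 m against Ctrl the medians were 0.34 and -0.23, and in IH5DR2 against IH5D they were -0.03 and 0.01.

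Zfp948 had the largest fitted change. Its signals were 9.71, 9.88 and 15.6 in Ctrl and 101, 116 and 110 in 12 m, which gave means of 11.7 ± 3.35 and 109 ± 7.48 (SD, n = 3). The log2 change was 3.25 (SE 0.32, limma adjusted p = 6.71e-06), and it was 3.24 without 12 m array 3. All 3 Ctrl signals lay under 20, the level above which the study called a probe set expressed, so the size of this fold is uncertain. The same holds for 10 of the 101 rises. The other groups lay between these ends, with 25.5 to 37.9 in IH5D, 21.9 to 28.0 in IH5DR2, 14.3 to 42.4 in Ctrl28 and 38.4 to 52.9 in IH28D. All arrays of those 4 groups were above the highest Ctrl array except Ctrl28 array 1, and all were below the lowest 12 m array. Zfp942 had 19.9, 24.9 and 17.3 in Ctrl and 104, 152 and 132 in 12 m (log2 change 2.65, SE 0.33, limma adjusted p = 2.09e-05). Zfp995 had 17.1, 10.4 and 35.2 in Ctrl and 90.0, 109 and 132 in 12 m (2.56, SE 0.38, adjusted p = 7.42e-05). Zfp950 had 72.1, 65.2 and 68.0 in Ctrl and 392, 382 and 382 in 12 m (2.50, SE 0.25, adjusted p = 6.71e-06). For each of these genes every 12 m array was above every other array. A second probe set of Zfp950 gave a log2 change of 1.96 (adjusted p = 0.000401), and one of Zfp995 gave 3.26 (adjusted p = 0.00156).

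The rises of Zfp943, Zfp932, Zfp758 and Zfp654 were 2.48, 2.44, 2.35 and 2.34 on the log2 scale (SE 0.29 to 0.33). Zfp932, a repressor of endogenous retroviruses, went from 47.3, 43.9 and 62.2 in Ctrl to 285, 288 and 250 in 12 m. Zfp654 was read by a probe set of the type that can bind transcripts of several genes. Of the 8 named rises, all passed without 12 m array 3, at 2.30 to 3.24, and all passed against Ctrl28, at 1.38 to 2.33.

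**Figure D2:**
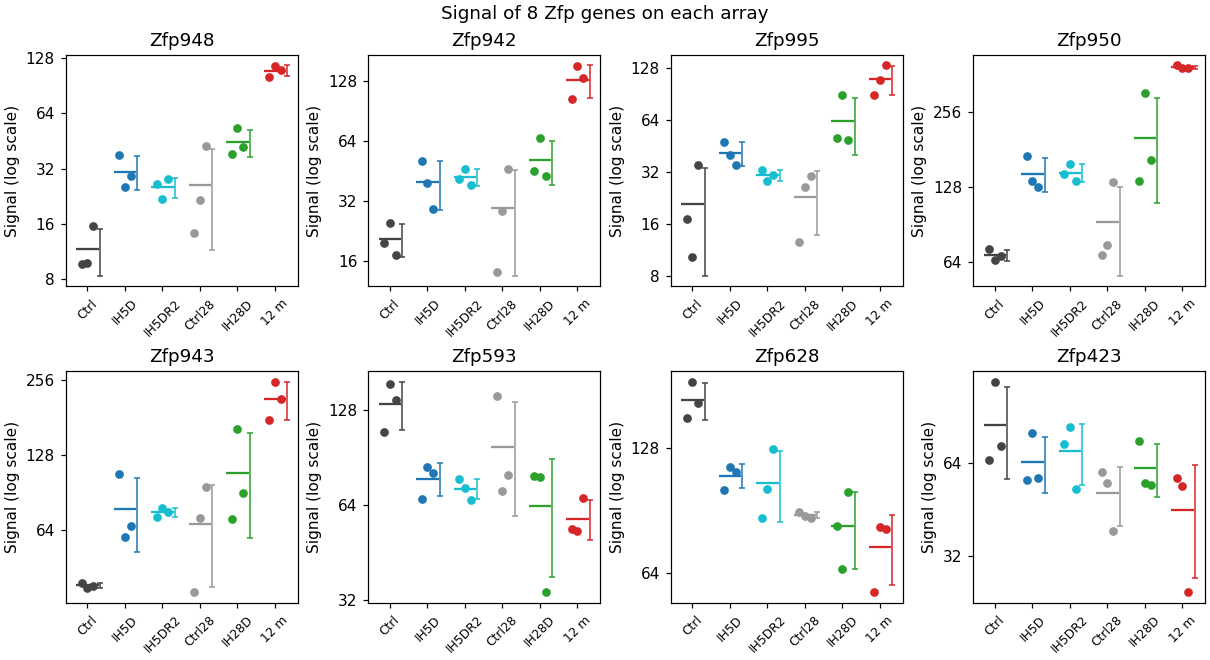
Signal (vertical axis, log scale, arbitrary units) of 8 Zfp genes on each of 18 arrays (points) in 6 groups (horizontal axis), with the group mean (line) and its SD (bar, n = 3). The 5 genes with the largest named rises in 12 m lay highest in the 12 m group, while Zfp593, Zfp628 and Zfp423 had their lowest group mean in 12 m.

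Falls were smaller. Zfp593, which acts in export of the large ribosomal subunit, had 109, 154 and 138 in Ctrl and 53.6, 52.9 and 67.6 in 12 m (log2 change -1.20, SE 0.29, limma adjusted p = 0.00245). Zfp628 had 151, 184 and 164 in Ctrl and 57.6, 82.8 and 81.7 in 12 m (-1.18, SE 0.18, adjusted p = 9.88e-05). The groups did not overlap in either case, which was a condition for naming falls. They did not overlap for 63.3% of Zfp genes and 62.9% of all genes. Zfp423, a developmental factor that partners with EBF proteins, had 65.6, 118 and 72.9 in Ctrl and 57.4, 54.1 and 24.4 in 12 m (-0.97, SE 0.31, adjusted p = 0.0151). Its value rested on the array that stood apart, since without 12 m array 3 the change was -0.57 and did not pass (adjusted p = 0.0994). Zfp64, Zfp3 and Zfp771 changed by -0.96, -0.92 and -0.85 and passed with adjusted p of 0.00602, 0.00304 and 0.00462. All 3 passed without array 3 (-0.76, -0.61 and -0.89). The probe sets of Zfp593 and Zfp771 are also of the type that can bind transcripts of several genes. Against Ctrl28 none of the 6 named falls passed, with changes of -0.69 to -0.13 (adjusted p 0.0655 to 0.725), and no other Zfp gene fell.

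**Figure D3:**
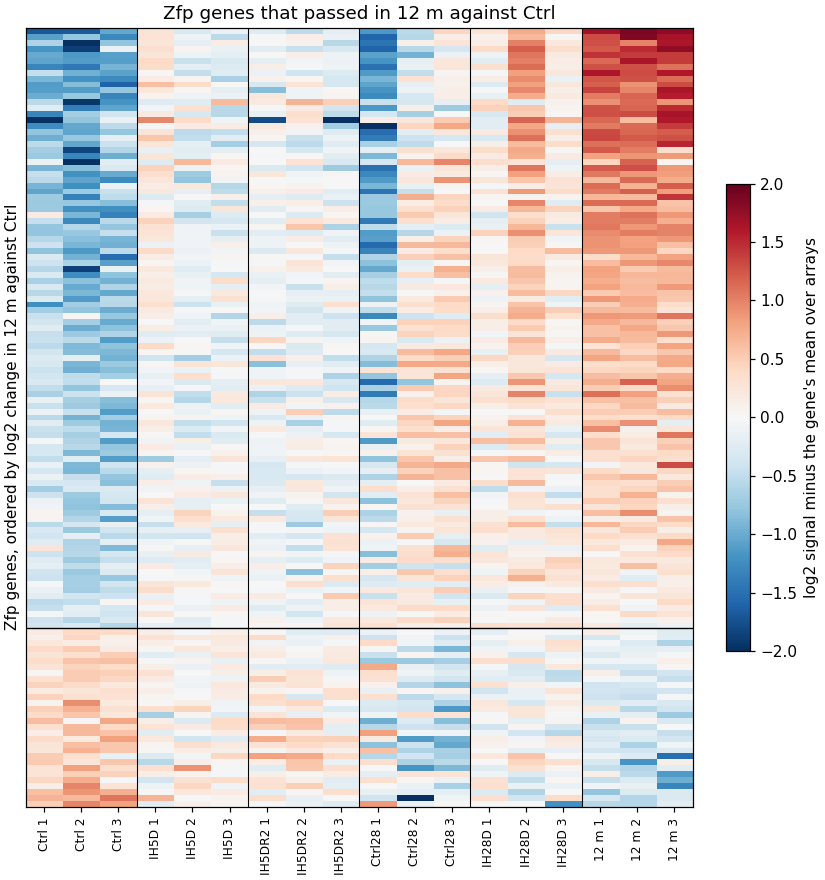
The 131 Zfp genes that passed in 12 m against Ctrl (rows, in the order of their log2 change) on 18 arrays (columns), coloured by log2 signal minus the gene's own mean over all arrays. The black horizontal line parts the 101 rises from the 30 falls, and in the upper block Ctrl arrays are mostly lowest, 12 m arrays mostly highest and Ctrl28 array 1 mostly lower than the other Ctrl28 arrays.

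Over all 237 Zfp genes the median deviation from the gene's mean over arrays was -0.14 to -0.19 on the 3 Ctrl arrays and 0.17 to 0.19 on the 3 12 m arrays, on the log2 scale. The 6 arrays of IH5D and IH5DR2 had -0.03 to 0.05, and the IH28D arrays had 0.06 to 0.19. The Ctrl28 arrays had -0.16, 0.01 and 0.08, the lowest being array 1, whose 3' to 5' gap was the largest. With this gap entered as a term of the fit 109 Zfp genes rose and 44 fell in 12 m against Ctrl. Shares of all genes are not given for that fit.

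Zfp genes that silence retroelements and imprints were listed as a group, of which 5 passed the signal threshold. In 12 m 3 of them rose (60.0%, against 21.7% of all genes). Zfp445, which maintains imprints, had 378, 255 and 319 in Ctrl and 1099, 1161 and 1135 in 12 m, with no overlap (log2 change 1.85, SE 0.24, limma adjusted p = 2.8e-05). Its 2 weaker probe sets gave 1.40 and 1.78, and both passed. Zfp809, which silences murine leukaemia virus DNA in embryonic cells, rose by 1.27 (SE 0.22, adjusted p = 0.000204), and the third was Zfp932. Zfp568, a repressor of a placental Igf2 transcript, and Zfp961 changed by -0.06 and 0.00 (adjusted p = 0.894 and 0.995). The median of the list was 1.27, against -0.23 for all genes tested, and 3 rose and 0 fell without 12 m array 3.

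Of 10 Zfp genes with roles in RNA and ribosomes, 3 rose and 2 fell in 12 m. The rises were 30.0% of the list, against 21.7% of all genes, and without 12 m array 3 there were 3 rises and 1 fall. Zfp638, an RNA-binding protein, had 82.1, 68.2 and 83.6 in Ctrl and 355, 314 and 330 in 12 m (log2 change 2.10, SE 0.32, adjusted p = 8.7e-05). Zfp326, a part of the complex that couples elongation to splicing, rose by 1.39 (SE 0.17, adjusted p = 1.85e-05), and Zfp106, an RNA-binding protein needed by motor neurons, rose by 1.16 (SE 0.12, adjusted p = 8.77e-06). The second probe set of Zfp106 did not pass (0.32, adjusted p = 0.142), nor did those of Zfp91, Zfp365 and Zfp266 (0.21, 0.23 and 0.35). The falls were those of Zfp593 and of Zfp346, a double-stranded RNA-binding protein (-0.39, SE 0.16, adjusted p = 0.0412), and the latter did not pass without 12 m array 3 (-0.38, adjusted p = 0.0798) and turned to 0.11 against Ctrl28. Zfp36, which promotes decay of AU-rich mRNAs, Zfp598, a sensor of collided ribosomes, Zfp207, Zfp830 and Zfp622 did not pass, with changes of -0.50, 0.08, 0.23, 0.39 and -0.37. For Zfp207, a spindle protein, 3 weaker probe sets gave 1.31 to 1.62 and all passed, in contrast to the brightest.

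Of 24 Zfp genes with roles in development and chromatin, 13 rose and 3 fell in 12 m, with a median log2 change of 0.65. The shares were 54.2% and 12.5%, against 21.7% and 31.6% of all genes, and without 12 m array 3 12 rose and 2 fell. Zfp644, Zfp292 and Zfp281, the last a pluripotency factor, rose by 1.68, 1.66 and 1.64. Zfp148, a transcription factor of GC-rich sites, rose by 1.49 (SE 0.27, adjusted p = 0.000323), and each of its 6 probe sets passed as a rise, at 1.10 to 1.65. Zfp131, Zfp462, Zfp451, Zfp369 and Zfp91 rose by 1.47, 1.34, 1.24, 1.09 and 0.99, and Zfp24, Zfp365, Zfp407 and Zfp536 by 0.95, 0.73, 0.69 and 0.61. Zfp451 is a SUMO ligase, Zfp91 a ubiquitin ligase and Zfp24 a factor of myelin formation. Zfp423, Zfp592 and Zfp687 fell by 0.97, 0.64 and 0.62 on the log2 scale. Without 12 m array 3 Zfp407, like Zfp423, did not pass (0.61, adjusted p = 0.0989). Against Ctrl28 Zfp407 and Zfp687 changed direction (-0.01 and 0.18). The other 8, among them Zfp521 (-0.21), Zfp335 (-0.29) and Zfp503 (-0.60), did not pass.

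Corepressors that KRAB proteins recruit and heterochromatin genes were taken as a list of the same pathway, and 31 were tested. In 12 m 10 rose and 8 fell, with a median of -0.08. These were 32.3% and 25.8%, against 21.7% and 31.6% of all genes, and 9 rose and 6 fell without 12 m array 3. Against Ctrl28 6 of the 31 rose and 2 fell, where 8.05% and 8.3% of all genes did. Trim28 itself fell from a mean of 1131 ± 173 in Ctrl to 696 ± 43.1 in 12 m (log2 change -0.69, SE 0.20, limma adjusted p = 0.00771), but it changed by 0.13 against Ctrl28 (adjusted p = 0.693). The methyltransferase Setdb1 changed by -0.08 (adjusted p = 0.703). Rises included the chromatin remodeler Atrx (1.86, adjusted p = 1.64e-05) and the HUSH complex genes Tasor and Mphosph8 (1.61 and 1.20, adjusted p = 0.000301 and 0.000213). Against Ctrl28 these 3 rose as well, by 1.65, 1.44 and 1.14. Falls against Ctrl included Daxx, Ehmt2 and Hdac1 (-0.76, -0.57 and -0.53). Against Ctrl28 Daxx and Ehmt2 turned to 0.22 and 0.77, the latter passing as a rise (adjusted p = 0.000968), and Hdac1 did not pass (-0.15). In other zinc finger families 12 m gave 12 rises and 4 falls among 29 Zbtb genes, 6 and 2 among 13 Klf genes and 4 and 1 among 14 Zscan and Zkscan genes. The shares were 41.4% and 13.8%, 46.2% and 15.4%, and 28.6% and 7.14%, against 21.7% and 31.6% of all genes. The counts were 10 and 3, 6 and 2, and 4 and 1 without 12 m array 3. No test of a difference between these families and the Zfp genes was made.

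Rises in 12 m were spread over the range of mean signals. They made up 35.5% of the 93 Zfp genes with a mean signal of 20 to 50, 38.6% of the 70 at 50 to 100, 54.9% of the 51 at 100 to 200 and 56.5% of the 23 over 200. In all genes tested the shares in the same ranges were 13.7%, 20.3%, 25.5% and 24.1%. Without 12 m array 3 the shares were 33.3%, 34.3%, 51.0% and 60.9% of Zfp genes and 11.6%, 19.3%, 24.6% and 24.0% of all genes. The level of the genes itself was part of how they were chosen, so these shares are a description.

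The Zfp genes of chromosome 17 stood out by position after their values were seen, and so carry no test. Of the 30 on that chromosome, 23 rose and 2 fell in 12 m against Ctrl, with a median log2 change of 1.35. Of the 495 other genes tested on chromosome 17, 60 rose (12.1%) and 210 fell, with a median of -0.41. Among the 30 there were 23 rises and 1 fall without 12 m array 3. The 207 Zfp genes on other chromosomes gave 78 rises and 28 falls with all arrays, with a median of 0.20. Along the chromosome the first 15 Zfp genes tested, from Zfp160 to Zfp40, all rose, by 1.02 to 3.25, and these included Zfp948, Zfp995, Zfp942, Zfp943, Zfp758 and Zfp760. All 15 also passed without 12 m array 3, and 12 passed against Ctrl28, where all 15 changes were above 0. In IH5D and IH5DR2 against the same Ctrl arrays all 15 were above 0 as well, with medians of 0.83 and 0.70, and 2 passed in each. In IH28D against Ctrl28 14 were above 0, with a median of 0.87, and 3 passed. With the 3' to 5' gap as a term 10 were above 0 there, with a median of 0.30, and 0 passed. Of the 15, Zfp948, Zfp983, Zfp53 and Zfp758 had a mean Ctrl signal under 20, and Zfp983 passed the threshold only through the 12 m group. The other 11 rose by 1.02 to 2.65. Next in order came Zfp213, Zfp13, Zfp598 and Zfp523, of which Zfp13 fell (-0.73) and the rest did not pass. Of the 15 probe sets, 14 carried the suffix of sets designed for a single transcript. Near-identical copies of such cluster genes may still share signal, so single values within the cluster are uncertain. On chromosome 7, with 63 Zfp genes, 20 rose and 12 fell (median 0.02), and on chromosome 8 7 of 21 rose and 1 fell. The rises were 31.7% and 33.3%, against 11.1% and 16.6% of the other genes on those chromosomes. Without 12 m array 3 the counts were 16 and 11 on chromosome 7 and 6 and 1 on chromosome 8. Over all chromosomes, 51 of 116 Zfp genes that lay next to another Zfp gene rose and 13 fell (median 0.38), against 50 and 17 of 120 that did not (median 0.23).

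**Figure D4:**
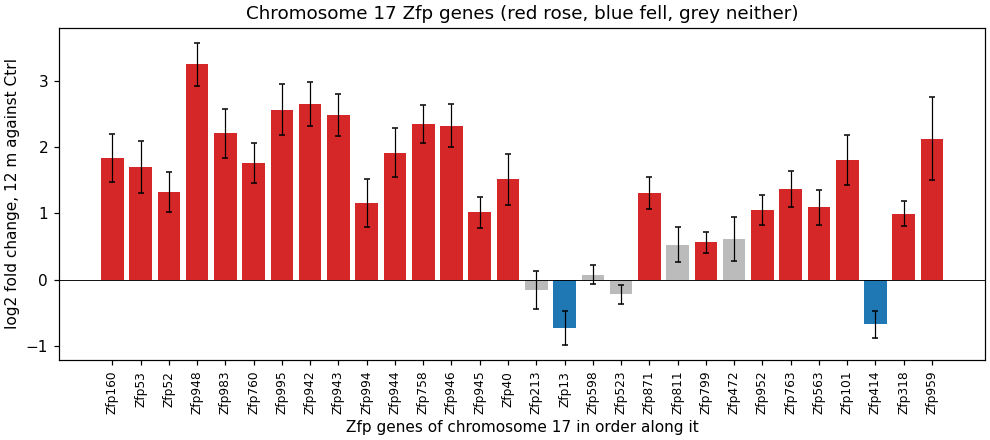
The log2 fold change in 12 m against Ctrl (vertical axis, bars, with the SE as error bars) of the 30 Zfp genes tested on chromosome 17, in their order along it (horizontal axis). Red bars passed as rises, blue bars as falls and grey bars did not pass. The first 15 genes were all rises, of 1.02 to 3.25.

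Comparison of IH5D with Ctrl asked what 5 days of IHT changed. Here 16 Zfp genes rose and 0 fell, against 5.4% and 1.12% of all genes. The rises were 6.75% of the Zfp genes, near the share in all genes, and the median log2 change was 0.21 against -0.10. At an unadjusted p under 0.05, limma gave 66 rises and 10 falls. These were 76 of 237 Zfp genes, where 3375 of all 11657 genes were under that p. Zfp386 had 32.5, 38.9 and 23.0 in Ctrl and 107, 91.4 and 70.7 in IH5D (log2 change 1.52, SE 0.31, limma adjusted p = 0.014). Zfp932 had 152, 104 and 98.5 in IH5D (1.20, SE 0.33, adjusted p = 0.0406), and Zfp950 had 170, 135 and 128 (1.07, SE 0.25, adjusted p = 0.0262). Zfp597 had 40.9, 29.1 and 28.8 in Ctrl and 69.4, 56.1 and 80.6 in IH5D (1.06, SE 0.26, adjusted p = 0.0292). In these 4 genes all IH5D arrays were above all Ctrl arrays, and lack of overlap was a condition for naming them. The groups did not overlap for 38.8% of Zfp genes and 41.4% of all genes. Among listed genes, Zfp131, Zfp326, Zfp106, Zfp91, Zfp462 and Zfp445 rose by 0.97, 0.95, 0.68, 0.69, 0.87 and 1.04. Whether replicate numbers pair the IH5D and Ctrl arrays is not stated. With the number as a block 12 of the 16 passed, Zfp932 not among them (limma adjusted p = 0.0567). Without Ctrl array 2, Ctrl array 3, IH5D array 1 or IH5D array 3 no Zfp gene passed in limma, with 38, 54, 44 and 54 rises at an unadjusted p under 0.05. The share of all genes at that p is not given for these fits. For all 16 genes every IH5D array was above every Ctrl array, so their changes could not fall below 0 in these fits. The median log2 changes of the 16 were 0.91, 0.87, 0.93 and 0.95, against 0.97 with all arrays. The count was 9 when IH5D array 2 was left out and 26 when Ctrl array 1 was. It was 64 when Ctrl28 array 1, which enters through the pooled spread, was left out. Among the genes named here, second probe sets passed for Zfp597 and Zfp462 (1.11 and 0.68) and not for Zfp386, Zfp950, Zfp106, Zfp91 or Zfp445 (0.85, 0.84, 0.17, 0.34 and 0.77). Another one of Zfp445 did not pass either (0.80).

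IH5DR2 against Ctrl gave 17 rises and 1 fall, which were 7.17% and 0.422% of the Zfp genes against 4.38% and 1.24% of all genes, with a median of 0.22 against -0.07. Zfp932 had 128, 117 and 110 in IH5DR2 (log2 change 1.22, SE 0.33, limma adjusted p = 0.0414). Zfp711, an X-linked gene tied to intellectual disability, had 28.3, 33.2 and 22.7 in Ctrl and 66.2, 53.4 and 58.5 in IH5DR2 (1.09, SE 0.29, adjusted p = 0.0403). Zfp950 and Zfp386 rose by 1.09 and 1.07. Zfp628 was the fall, with 86.7, 102 and 127 in IH5DR2 (-0.67, SE 0.18, adjusted p = 0.0427). None of these 5 had arrays that overlapped with Ctrl, which was a condition for naming them. The groups did not overlap for 38.0% of Zfp genes and 40.8% of all genes. Of the 17 rises, 12 were also rises in IH5D and all 17 in 12 m, as were all 16 rises of IH5D. The 3 comparisons share the Ctrl arrays, which ties their changes together, and the like counts over all genes tested are not given. Leaving out Ctrl array 2 or 3, or IH5DR2 array 2 or 3, brought the count in limma to 0, with 37 to 51 rises and 8 to 15 falls at an unadjusted p under 0.05. With all arrays 77 of 237 Zfp genes and 3326 of 11657 genes tested were under that p. For the fits with an array left out the share of all genes at that p is not given. The count after adjustment was 3 when IH5DR2 array 1 was omitted, 10 for IH5D array 3, 29 for Ctrl array 1 and 55 for Ctrl28 array 1.

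Between IH5DR2 and IH5D, which asked whether 64 h in normal air altered levels reached after 5 days, 0 Zfp genes passed in either direction in limma, as did 0.0% of all genes. At an unadjusted p under 0.05 limma gave 2 rises and 3 falls, and the methods' t-test also gave 2 and 3. Of all 11657 genes 418 were under that p in limma. The median log2 change was -0.03. For Zfp386 the group means were 89.7 ± 18.2 in IH5D and 66.0 ± 16.7 in IH5DR2 (SD, n = 3), and for Zfp950 they were 145 ± 22.6 and 146 ± 11.5.

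After 28 days of IHT, in IH28D against Ctrl28, 12 Zfp genes rose and 2 fell. These were 5.06% and 0.844% of the Zfp genes, against 6.06% and 2.44% of all genes, so neither share was above that of all genes, and the medians were 0.15 and 0.02. Zfp740 had 92.0, 73.5 and 76.0 in Ctrl28 and 153, 168 and 196 in IH28D (log2 change 1.10, SE 0.15, limma adjusted p = 0.000188). Zfp995 had 12.7, 26.2 and 30.6 in Ctrl28 and 50.3, 89.1 and 49.4 in IH28D (1.48, SE 0.38, adjusted p = 0.0238). Zfp760 and Zfp292 rose by 1.15 and 1.14 (adjusted p = 0.0253 and 0.00529), and Zfp950 by 1.10 (adjusted p = 0.0121). The groups did not overlap in any of these 5 genes, which for all but Zfp740 was a condition for naming them. They did not overlap for 20.3% of Zfp genes and 23.6% of all genes. Zfp110, which binds the neurotrophin receptor p75, had 128, 83.3 and 106 in Ctrl28 and 65.3, 68.6 and 70.7 in IH28D (-0.61, SE 0.15, adjusted p = 0.0177), and Zfp330, a nucleolar protein, had 412, 357 and 354 against 284, 254 and 249 (-0.51, SE 0.14, adjusted p = 0.03). With Ctrl in place of Ctrl28 73 Zfp genes rose and 12 fell, against 17.5% and 15.8% of all genes, and Zfp330 then changed by 0.02. With that gap as a term 21 passed, and 3 of the 14 kept their call. Zfp740 was among them (1.25, adjusted p = 0.000428), while Zfp995, Zfp760, Zfp292, Zfp950, Zfp110 and Zfp330 did not pass (adjusted p 0.121 to 0.521). Weaker probe sets of Zfp292, Zfp950 and Zfp995 did not pass either (0.57 to 1.26). Without Ctrl28 array 1 25 passed, but Zfp760 and Zfp995 did not (adjusted p = 0.0587 and 0.0571). Without Ctrl28 array 3 21 passed, and without IH28D array 2 or array 3 6 and 8.

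KRAB corepressors in IH28D gave 6 rises and 2 falls among 31, with a median of 0.25 against 0.015 for all genes. The shares were 19.4% and 6.45%, against 6.06% and 2.44% of all genes. The methyltransferase Ehmt2 went from 232 ± 38.6 to 516 ± 31.5 (SD, n = 3), a log2 change of 1.17 (limma adjusted p = 2.31e-05). The remodeling subunit Mta2 rose by 1.37 (adjusted p = 9.28e-05). Atrx and Daxx rose by 0.95 and 0.68. Rbbp4 and Rbbp7 fell by 0.51 and 0.39 on the log2 scale. With Ctrl in place of Ctrl28, Ehmt2 and Daxx turned to -0.18 and -0.30, and neither these nor Mta2 (0.23) nor Rbbp7 (-0.04) passed, while Atrx and Rbbp4 did (1.16 and -0.43). None of the 5 silencing genes or of the 10 RNA and ribosome genes among the Zfp genes passed, and of the 24 in development and chromatin Zfp292 rose and Zfp110 fell. These calls are of the brightest probe set. Among these genes a dimmer probe set passed where the brightest did not for Zfp622 (-0.86, limma adjusted p = 0.0115) and Zfp91 (-1.24, adjusted p = 0.00794).

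**Figure D5:**
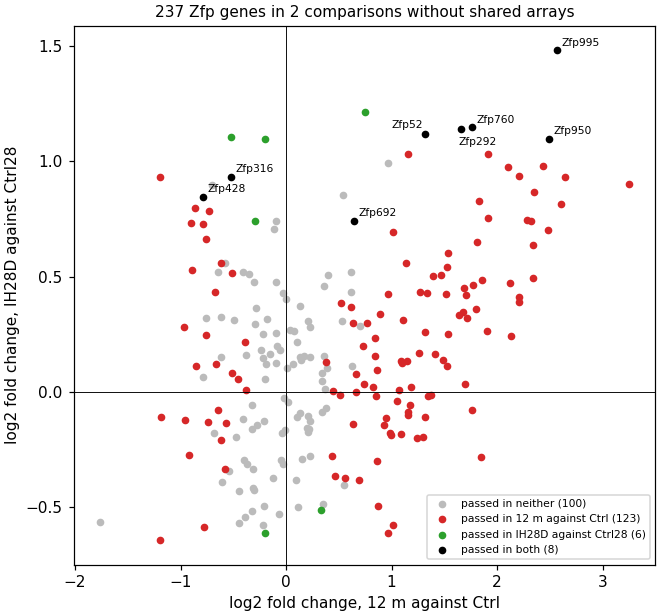
The log2 fold change of each of 237 Zfp genes in 12 m against Ctrl (horizontal axis) and in IH28D against Ctrl28 (vertical axis), which share no arrays. Colours mark where a gene passed, and the 8 named genes passed in both. Of these 8, 6 rose in both and Zfp316 and Zfp428 fell in 12 m and rose in IH28D.

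The comparisons of 12 m with Ctrl and of IH28D with Ctrl28 share no arrays, and 6 Zfp genes rose in both: Zfp995, Zfp760, Zfp292, Zfp52, Zfp950 and Zfp692. The same 6 did without 12 m array 3. They were 6 of the 12 rises in IH28D, where 42.6% of all Zfp genes rose in 12 m, and 5.94% of the 101 rises in 12 m. Over all genes tested 87 rose in both. These were 12.3% of the 706 rises in IH28D, where 21.7% of all genes rose in 12 m, and 3.45% of the 2524 rises in 12 m. The difference between the 2 contrasts was itself tested in the fit. For 24 Zfp genes the change was higher in IH28D and for 60 it was lower, which were 10.1% and 25.3%, against 20.4% and 15.0% of all genes. In all 35.4% of Zfp genes and 35.4% of all genes passed. There were 26 higher and 55 lower without 12 m array 3. Zfp612 had 90.3, 75.7 and 82.7 in Ctrl, 188, 195 and 229 in 12 m, 126, 170 and 161 in Ctrl28 and 121, 150 and 127 in IH28D. Its difference was -1.49 (SE 0.20, limma adjusted p = 8.35e-05), and that of Zfp106 was -1.26 (SE 0.17, adjusted p = 9.06e-05). Both rose in 12 m and did not pass in IH28D, and without 12 m array 3 the differences were -1.41 and -1.27. Zfp428 had 261, 331 and 317 in Ctrl, 185, 140 and 204 in 12 m, 123, 162 and 107 in Ctrl28 and 230, 224 and 241 in IH28D, a difference of 1.64 (SE 0.23, adjusted p = 0.000102), or 1.75 without array 3. It was lowest in Ctrl28, and with the controls exchanged its changes were 0.44 in 12 m and -0.38 in IH28D.

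The change in IH28D against Ctrl28 was higher than that in IH5D against Ctrl for 4 Zfp genes and lower for 6, against 6.58% and 3.08% of all genes. Zfp740 differed by 1.30 (SE 0.21, limma adjusted p = 0.00125). Zfp316 differed by 1.48 (SE 0.25, adjusted p = 0.00178) and Zfp428 by 1.13 (SE 0.23, adjusted p = 0.00598). Zfp316 had 57.1, 66.1 and 67.3 in Ctrl and 26.5, 26.6 and 28.2 in Ctrl28, and the IH5D and IH28D arrays lay between, at 40.2 to 46.5 and 43.1 to 56.8. The fourth was Zfp865, and the lower ones were Zfp106, Zfp266, Zfp330, Zfp639, Zfp799 and Zfp91, the listed names being chosen after their values were seen. Without Ctrl28 array 1 the number that passed went from 10 to 55.

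The untreated groups differed as well. In Ctrl28 against Ctrl 49 Zfp genes rose and 25 fell, which were 20.7% and 10.5% of them, against 16.9% and 21.0% of all genes, and the medians were 0.17 and -0.08. Zfp451 had 82.2, 58.3 and 57.0 in Ctrl and 86.2, 164 and 181 in Ctrl28 (log2 change 1.08, SE 0.24, limma adjusted p = 0.00255). Zfp266 and Zfp655 rose by 1.06 and 0.98. Zfp106 had 398, 276 and 296 in Ctrl and 645, 642 and 658 in Ctrl28 (1.02, SE 0.12, adjusted p = 1.64e-05). None of these genes overlapped between the groups. Zfp428, Zfp316, Zfp580 and Zfp13 fell by 1.23, 1.22, 1.17 and 1.11 on the log2 scale (adjusted p 3.65e-05 to 0.00308), also without overlap. Lack of overlap was a condition for naming these rises and falls. It was seen for 31.6% of Zfp genes and 39.6% of all genes. Of the 49 rises 45 were rises in 12 m, and of the 25 falls 17 were falls in 12 m, with the Ctrl arrays shared. The like counts over all genes tested are not given, so this is not a result particular to Zfp genes. Without Ctrl28 array 1 127 Zfp genes passed, without Ctrl array 2 or Ctrl28 array 2 45, and without Ctrl28 array 3 48. Corepressors gave 4 rises and 9 falls (12.9% and 29.0%, against 16.9% and 21.0% of all genes). Trim28 was at -0.82 and Ehmt2 at -1.34 (limma adjusted p = 0.0039 and 1.33e-06).

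Several probe sets over the threshold were present for 72 of the 237 Zfp genes. All probe sets of a gene had the same sign for 60 of the 72 in 12 m against Ctrl, 54 in IH5D, 53 in IH5DR2, 51 in Ctrl28 against Ctrl and 36 in IH28D. Calls in opposite directions occurred for Zfp655 in 12 m, with 1.32 for the brighter probe set (mean signal 156) and -0.95 for the dimmer (54.5). When the mean of all probe sets stood for a gene, 103 Zfp genes rose and 28 fell in 12 m, with no share of all genes given.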

How the data were processed

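Total RNA from hippocampus was hybridised to Affymetrix mouse expression arrays, 3 for each of 6 groups. The authors calculated and normalized signals with MAS5, and the deposited values are log2 signals for 45101 probe sets, and the 2% trimmed mean of the unlogged signal was 100.03 to 100.04 on every array. The number of arrays limits the precision. Probe sets were named from the platform annotation, and those with no gene or several were left out. Log2 signals were fitted in limma 3.58.1 (R 4.3.3) with a mean for each group and a variance trend (12 residual degrees of freedom), two-sided, with Benjamini-Hochberg adjustment over 11657 genes. The methods' t-test, with unequal variances, was run as an alternative. Fits were tested on simulated data. The members and lists were chosen with earlier results of these data known. Named genes were those of adjusted p under 0.05 without overlap between the groups' arrays and a mean signal in the higher group that reached 50: the 8 largest rises and 6 largest falls in 12 m, up to 4 of each in other comparisons and the 3 of smallest p in each difference, with the members of the role lists, the 5 brightest and those at the threshold. Replicate numbers were checked by the correlation of deviations from group means. For IH5D and Ctrl it was 0.153, 0.289 and 0.239 for the 3 numbers, and in no other comparison did all 3 numbers exceed 0.1. The labels state no pairing and arrays of unlike number were not compared, so pairing was not established. Alternatives were the probe set rule, the signal minimum, scaling, a pseudocount, the variance trend, the arrays fitted, array weights, the 3' to 5' gap, the replicate block, the test, exchanged controls, the symbol rule, and, chosen after seeing the data, leaving out probe sets of shared type. Protein sequences and domains were not analysed here. Blood markers (5 listed) had no probe set that passed.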

Additional observations from a re-analysis of the deposited data

Results flagged for a closer look

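Changes of Zfp genes differed between the 28-day and the 5-day treatment, each against its own control, by the test of the difference in limma. The number that passed was 10, a lower share of Zfp genes (1.69% higher and 2.53% lower) than of all genes tested (6.58% and 3.08%), with differences (28-day minus 5-day, log2) of 1.30 for Zfp740, 1.48 for Zfp316 and 1.13 for Zfp428. Between the 28-day treatment and the 12 m group, each against its own control, 84 passed, 35.4% of Zfp genes and 35.4% of all genes tested, with differences (28-day minus 12 m, log2) of -1.49 for Zfp612, -1.26 for Zfp106 and 1.64 for Zfp428. Ctrl28 enters both differences, and its array 1 had the 3' to 5' gap of 2.39. The second probe set of Zfp106 changed by 0.32 in 12 m and 0.165 in IH28D, and passed in neither.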

How the results depend on the processing

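In IH5D against Ctrl the number of Zfp genes that passed was 16 and became 8 with the mean of all probe sets, 39 with the compared groups alone, 76 with array weights, 66 with the gap between 3' and 5' probe sets as a term, and 0 and 51 with the methods' t-test after and before Benjamini-Hochberg adjustment. For IH5DR2 it was 18 and in the same settings became 10, 41, 75, 59, 0 and 53, and it was 8 with no minimum signal and 11 without the variance trend. In 12 m it was 131, and 40 both with the adjusted methods' t-test and with the controls exchanged. In IH28D it was 14, and became 9 with a minimum of 50, 0 with the compared groups alone, 62 with array weights, 0 with the adjusted methods' t-test (18 before adjustment) and 85 with the controls exchanged. IH5DR2 against IH5D had 0, and 5 with the unadjusted methods' t-test. In Ctrl28 against Ctrl it was 74, and became 21 with the compared groups alone, 149 with array weights, 119 with the gap, and 0 and 43 with the adjusted and unadjusted methods' t-test. The difference from IH5D had 10, and 76 with array weights and 66 with the gap, and that from 12 m had 84, and 136 with array weights. With the replicate number as a block there were 12 in IH5D, 10 in IH5DR2, 130 in 12 m, 14 in IH28D, 70 in Ctrl28 against Ctrl, and 10 and 83 in the differences. Pairing by number is not stated in the labels and was not established for any comparison. The counts here compare settings, and shares of all genes are not given beside them. Leaving out each array in turn gave 0 to 64 in IH5D, 0 to 55 in IH5DR2, 104 to 147 in 12 m, 6 to 25 in IH28D, 0 to 0 in IH5DR2 against IH5D, 45 to 127 in Ctrl28 against Ctrl, 7 to 55 in the difference from IH5D and 61 to 125 in that from 12 m.

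Of 123 named results over 52 Zfp genes, none changed direction in the settings other than exchanged controls. Many of these settings could not turn a direction. The variance trend, the compared groups alone, the replicate block and the methods' t-test leave the fold changes as they are. For genes named by lack of overlap, leaving out an array cannot turn the change. The exchange of controls applied to 58 of the 123 results. Of the 58, 10 changed direction, 21 kept it and no longer passed and 27 kept it and their side of the threshold. Those that turned were in 12 m Zfp13 (0.38), Zfp316 (0.70), Zfp346 (0.11), Zfp407 (-0.009), Zfp428 (0.44), Zfp580 (0.41) and Zfp687 (0.18), and in IH28D Zfp316 (-0.29), Zfp330 (0.02) and Zfp428 (-0.38). The cause was not tested. Relative to their size, counts of IH5D, IH5DR2 and IH28D moved more between settings than that of 12 m. Low signals limit the dimmest genes. Age and rearing time cannot be told apart from any other difference between arrays of the untreated groups.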
